A study of Mus musculus with 9 samples.

Results

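NRF2 antioxidant target genes were followed in 3 groups of HL-1 cells (the name in the labels), a line of immortalized heart muscle cells from the mouse atrium. The genes were taken by name: the NRF2 gene Nfe2l2 itself and 9 genes known as its targets, Nqo1, Hmox1, Gclc, Gclm, Txnrd1, Srxn1, Slc7a11, Gsr and G6pdx. Of these 10 members, 8 had a value among the 30050 genes read from the table, each from 1 transcript cluster, the set of probes that stands for a transcript. The only cluster carrying the symbol Gclm also carried that of the pseudogene Gm6061 and gave no value, and no cluster was listed under G6pdx. RNA was measured on 9 Affymetrix arrays, 3 per group. Saline-treated controls (PBS) are called Con. Doxorubicin at 0.3 µM was given to both other groups, alone in DOX and together with interferon gamma at 20 ng/ml in DOX_IFNg. All groups were the same single cell line, grown in medium with fetal serum, and no source used here says whether the 3 arrays of a group came from separate cultures, so p-values here reflect array-to-array spread that can be technical. Treatment times were likewise not stated, and no group received interferon gamma alone.

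NRF2, the protein made from Nfe2l2, is a transcription factor that KEAP1 normally marks for destruction. Oxidants and electrophiles that modify KEAP1 let NRF2 build up, pair with a small MAF protein and bind antioxidant response elements, short DNA motifs near its target genes. The targets make glutathione, reduce thioredoxin, detoxify quinones, break down heme and supply NADPH, and heart muscle is regarded as sensitive to oxidative injury by anthracyclines such as doxorubicin.

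Values were log2 expression levels, on which a difference of 1 is a 2-fold change, and array medians over all clusters lay between 4.08 and 4.17. As a mark of dimness, the 95th percentile of 1714 odorant and vomeronasal receptor genes lay at 4.69, and all 8 measured members had a mean above it. Most markers did not bear out the heart muscle label. Only 3 of 13 measured heart muscle genes lay above this limit, Tnnt2, Nkx2-5 and, barely, Mb (mean 4.79 over all arrays). Those under the limit included Myh6 (4.29 ± 0.04 in Con, SD, n = 3), Myl7, Myl4, Nppa, Gata4 and Ryr2. Above it lay also 4 of 6 skeletal muscle markers and 3 of 6 fibroblast markers, all 3 of them collagens, against 0 of 5 endothelial and 0 of 6 immune markers. Several of these markers changed in the same comparisons as the members. In DOX minus Con limma called 3 of the 6 skeletal muscle markers lower and 1 higher, 4 of the 6 fibroblast markers lower and 1 higher, 1 of the 13 heart muscle markers lower, and 0 of the endothelial and immune markers. By the same rule, given below, 8.06% of all genes were called higher and 7.53% lower. Among the fibroblast calls, Lum (-0.38) and the riser Thy1 (0.21) lay under the limit. The skeletal muscle marker called higher was Myod1, by 0.76 (limma adjusted p = 0.0182). Myog, a regulator of muscle differentiation, averaged 8.18 ± 0.19 in Con, 4.76 ± 0.22 in DOX and 4.61 ± 0.16 in DOX_IFNg (SD, n = 3), so that its mean over all arrays stood above the limit through Con, while Col3a1 fell by 1.87 and Tnnt2 fell by 1.24 on the log2 scale in DOX. The mean log2 level of the skeletal muscle list ran from 6.01 to 6.12 over the Con arrays, 5.37 to 5.50 in DOX and 5.27 to 5.37 in DOX_IFNg. That of the fibroblast list ran from 9.02 to 9.14, 8.37 to 8.38 and 8.34 to 8.40 in the same order, and that of the heart muscle list from 4.55 to 4.57, 4.44 to 4.5 and 4.44 to 4.49. These means need not stand for every gene of a list, since single genes can move them. In DOX minus Con Myog fell by 3.42, while Myf5 (-0.11) and Ckm (0.12) were not called. Of the heart muscle list only Tnnt2 was called there, while Myh6 lay at 0.04 and Ryr2 at 0.01. Dcn of the fibroblast list lay at -0.13 and was not called. In such bulk RNA fewer cells of a type and less RNA per cell cannot be told apart, and the part of these shifts in the results on the members was not tested. Pairs within a set of 6 arrays (all DOX arrays, DOX_IFNg replicates 1 and 2, and Con replicate 1) shared 82 to 186 exactly identical values, and other pairs 1 to 17. This set was unevenly spread over the groups, so each result was also fitted with it as a covariate.

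Doxorubicin was followed by higher RNA of 7 of the 8 measured members, Nfe2l2, Nqo1, Slc7a11, Gclc, Hmox1, Txnrd1 and Srxn1, and Gsr did not pass the test. The rises ran from 1.27-fold for Srxn1 to 2.98-fold for Nqo1. Calls rest on limma, with p-values adjusted by the Benjamini-Hochberg method over all 30050 genes and a threshold of 0.05. By that rule 8.06% of all genes were called higher and 7.53% lower in DOX minus Con, and 17.4% of the 12127 genes above the receptor limit were called higher. Each of the 8 members had its DOX and Con arrays fully apart, with DOX higher in 7 and lower in Gsr, a separation found over all genes in 15.7% with DOX higher and in 17.2% with DOX lower. The median difference was 1.16 over the 8 members and -0.01 over all genes. Quantile normalization shifted the split over all genes from 2423 higher and 2264 lower to 3069 and 1902, with the same number of members called.

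**Figure D1:**
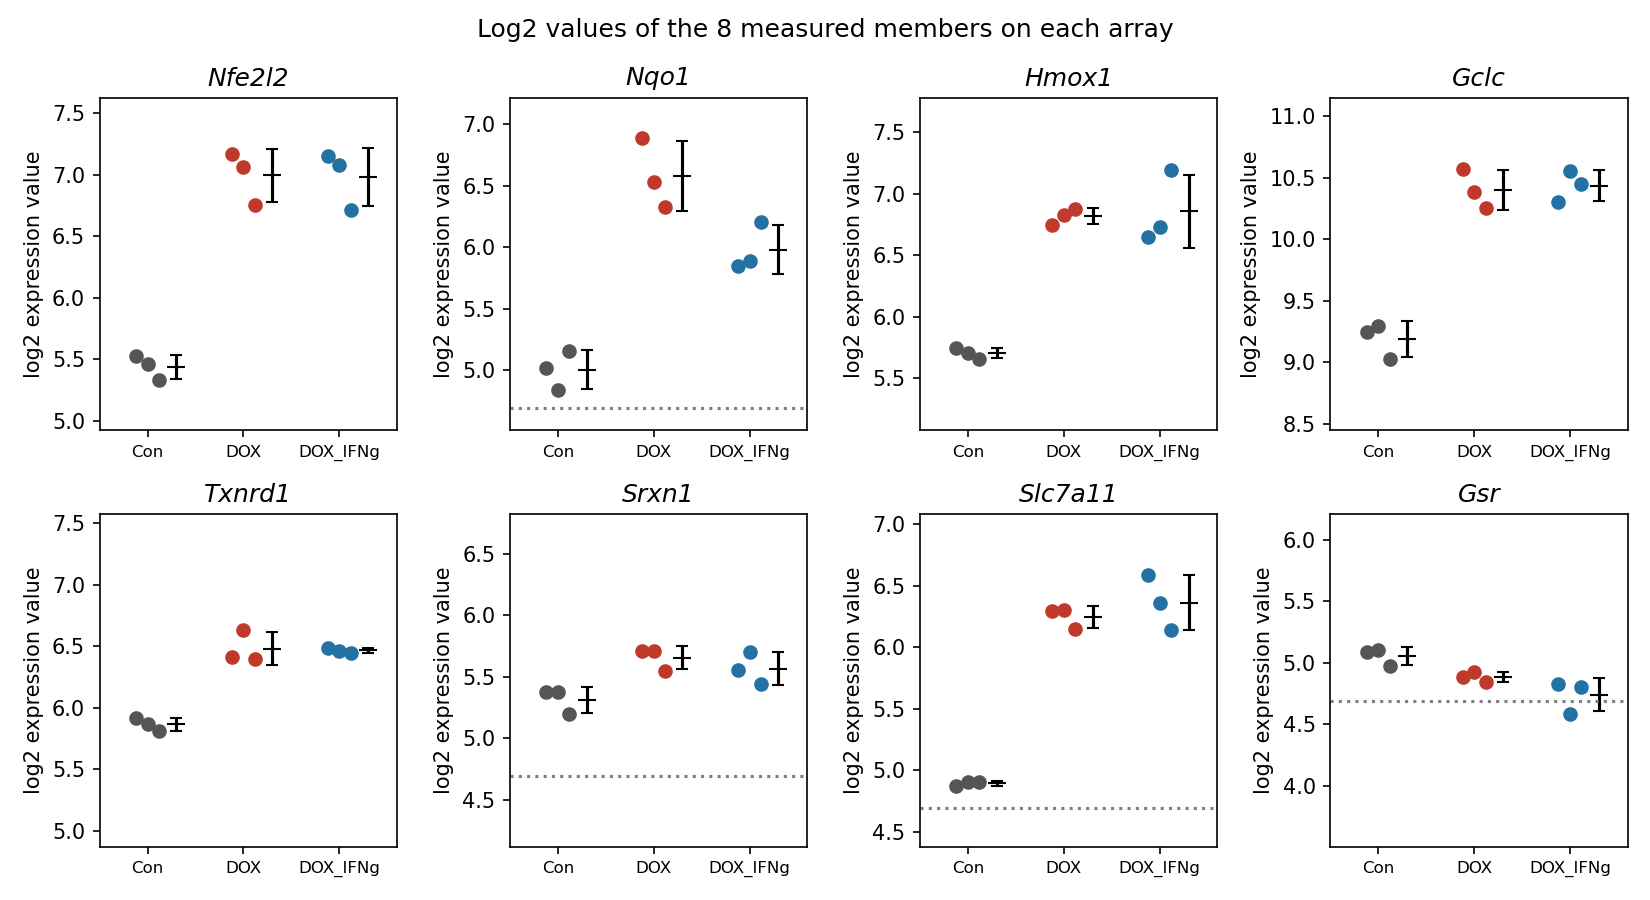
Log2 expression value (vertical axis, the same span in each panel) of the 8 measured members on the 3 arrays each of Con, DOX and DOX_IFNg; points are single arrays from replicate 1 to 3, crosses with bars are mean ± SD, and the dotted line is the receptor limit of 4.69. All DOX points of 7 members lie above their Con points, and the DOX_IFNg points of Nqo1 lie between those of the other groups.

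The regulator's own gene was among the members that rose most. Nfe2l2 (transcript cluster TC0200003791.mm.1) read 5.52, 5.46 and 5.33 on the Con arrays, 7.17, 7.06 and 6.75 on the DOX arrays, and 7.16, 7.08 and 6.71 on the DOX_IFNg arrays. Every treated array lay over 1 unit above every Con array, and replicate 3 was the lowest in each group. The DOX mean exceeded the Con mean by 1.56 (SE 0.14, 95% interval 1.24 to 1.87, 2.94-fold, limma adjusted p = 0.000149), a larger rise than in 99.7% of all genes. NRF2 activity is set mainly through the stability of the protein, which these arrays do not measure.

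Promoter windows from RefSeq (GRCm38.p6), which run from 250 bases before to 50 after an annotated transcript start, were listed for 7 of the 10 members. They were searched on both strands for the antioxidant response element core TGACNNNGC, the AP-1 element TGACTCA, whose letters the antioxidant core can contain, and the ATF4 composite element TGATGNAA. Among all 32851 windows, 12.39% held the antioxidant core, 5.2% the AP-1 element and 3.97% the ATF4 element. The antioxidant core was found in 5 of the 7 members with a window: Nfe2l2, Srxn1, Gclm, G6pdx and 1 of the 3 windows of Txnrd1. This count is per member, while the shares above are per window, and the 7 members had 9 windows. Gclm and G6pdx had no expression value, so their matches cannot be set beside a change. A match is a description of letters, not a measured binding site. The window of Nfe2l2 (chr2:75704614-75704913, minus strand) is shown because the regulator's own gene rose and its window holds the antioxidant core, in capitals, from 240 bases before the start.
Nfe2l2: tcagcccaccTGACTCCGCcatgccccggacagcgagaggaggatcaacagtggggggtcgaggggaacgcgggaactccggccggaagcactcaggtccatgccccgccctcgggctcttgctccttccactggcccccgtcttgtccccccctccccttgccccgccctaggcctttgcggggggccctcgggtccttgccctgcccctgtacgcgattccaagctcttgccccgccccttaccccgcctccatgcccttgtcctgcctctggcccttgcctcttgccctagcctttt

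**Figure D2:**
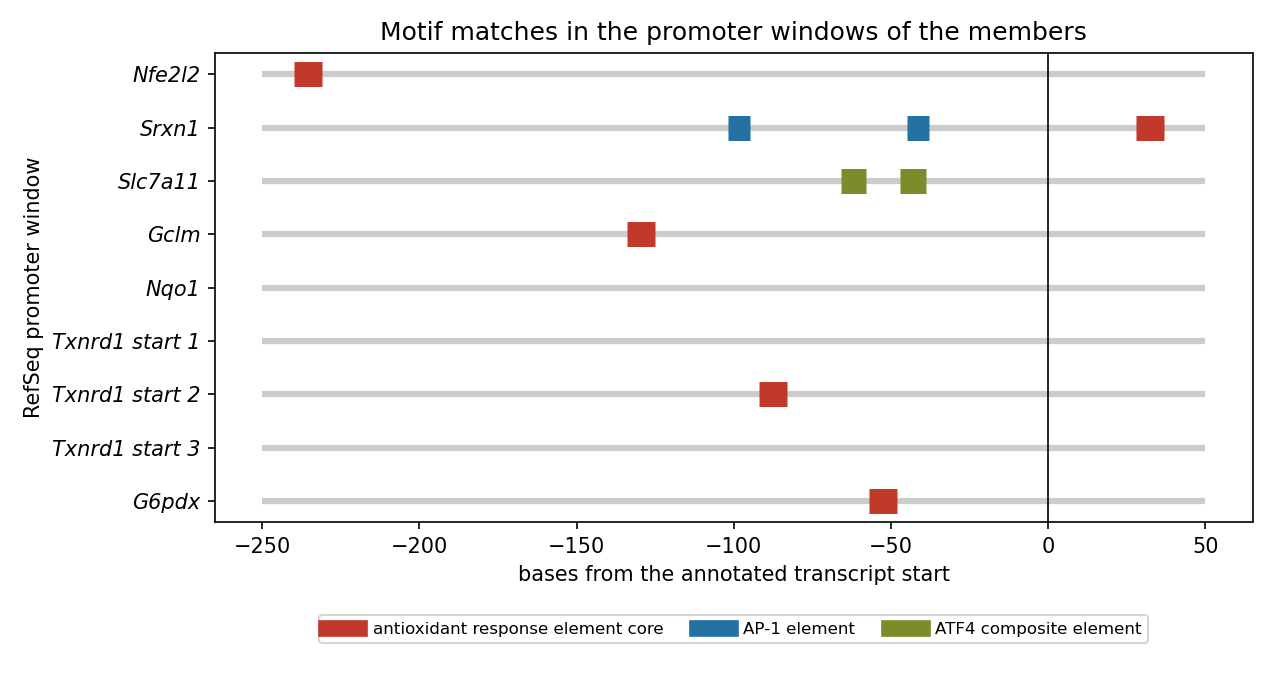
Positions of motif matches (coloured blocks) along the 9 RefSeq promoter windows of 7 members (grey lines), in bases from the annotated transcript start; Txnrd1 has 3 annotated starts. The antioxidant core falls in 5 members, both ATF4 elements in Slc7a11, both AP-1 elements in Srxn1, and the Nqo1 window holds none of the 3 motifs.

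Nqo1, a reductase that turns quinones into hydroquinones and is the most widely used readout of NRF2, had the largest rise among the members. It read 5.02, 4.84 and 5.15 in Con, 6.89, 6.53 and 6.32 in DOX, and 5.85, 5.89 and 6.21 in DOX_IFNg. The 3 groups did not overlap, with Con lowest and DOX highest. DOX exceeded Con by 1.57 (SE 0.16, 95% interval 1.22 to 1.93, 2.98-fold, limma adjusted p = 0.000266). The Con values lay close to the receptor limit, where RMA, the authors' routine for making the values, compresses differences, so the fold can be understated.

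Of the members that serve glutathione, Slc7a11 and Gclc, which act in its supply, rose, while Gsr, which recycles it, did not pass. Slc7a11, the light chain of the cystine importer, read 4.87, 4.90 and 4.91 in Con, 6.29, 6.31 and 6.14 in DOX, and 6.59, 6.36 and 6.14 in DOX_IFNg. Its treated arrays all lay over 1 unit above Con, and DOX exceeded Con by 1.36 (SE 0.11, 2.56-fold, limma adjusted p = 7.28e-05). Gclc, the catalytic subunit of glutamate-cysteine ligase that makes the first bond of glutathione, read 9.25, 9.30 and 9.03 in Con, 10.57, 10.38 and 10.25 in DOX, and 10.30, 10.55 and 10.45 in DOX_IFNg. The lowest treated array of Gclc was again well above the highest Con array, and the difference of DOX from Con was 1.21 (SE 0.11, 2.31-fold, limma adjusted p = 0.000145). Gsr, glutathione reductase, which returns oxidized glutathione to its reduced form with NADPH, read 5.09, 5.11 and 4.97 in Con, 4.88, 4.93 and 4.84 in DOX, and 4.83, 4.58 and 4.80 in DOX_IFNg. Its DOX values lay just under its Con values, by -0.17 (95% interval -0.34 to -0.00), which did not pass (limma adjusted p = 0.177).

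Slc7a11 is also known as a target of ATF4, the transcription factor of the integrated stress response. Its window (chr3:50443564-50443863, minus strand) is shown because it holds the ATF4 composite element at 2 places, on opposite strands and in capitals, from 66 and from 47 bases before the start, and no antioxidant core.
Slc7a11: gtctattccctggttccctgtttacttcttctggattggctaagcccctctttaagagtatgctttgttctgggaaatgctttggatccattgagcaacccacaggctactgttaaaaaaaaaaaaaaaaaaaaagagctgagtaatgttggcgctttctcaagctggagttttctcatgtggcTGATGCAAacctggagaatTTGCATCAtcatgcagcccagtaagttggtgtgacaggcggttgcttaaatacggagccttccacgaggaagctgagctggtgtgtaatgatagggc

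Hmox1, heme oxygenase, which opens heme into biliverdin, iron and carbon monoxide, read 5.75, 5.71 and 5.66 in Con, 6.75, 6.83 and 6.88 in DOX, and 6.65, 6.73 and 7.20 in DOX_IFNg. Con arrays lay within a narrow span and all treated arrays well above it, with DOX_IFNg replicate 3 the highest. DOX exceeded Con by 1.11 (SE 0.13, 2.16-fold, limma adjusted p = 0.000577).

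The 2 members of the thioredoxin branch rose less. Txnrd1, the cytosolic thioredoxin reductase, read 5.92, 5.87 and 5.81 in Con, 6.41, 6.63 and 6.39 in DOX, and 6.49, 6.46 and 6.45 in DOX_IFNg. The DOX_IFNg arrays were nearly equal, and all treated arrays lay above Con. DOX exceeded Con by 0.61 (SE 0.07, 1.53-fold, limma adjusted p = 0.000591). Srxn1, sulfiredoxin, which repairs overoxidized peroxiredoxins, read 5.37, 5.37 and 5.19 in Con, 5.71, 5.71 and 5.55 in DOX, and 5.55, 5.70 and 5.44 in DOX_IFNg. All DOX values lay above all Con values, and in both groups replicate 3 was the lowest. The rise of Srxn1 was 0.34 (SE 0.09, limma adjusted p = 0.0288), but it did not pass when Con replicate 2 was left out (adjusted p = 0.0537), nor without Con replicate 3 (0.0801), DOX replicate 1 (0.104) or DOX replicate 2 (0.0974), nor with the array set as a covariate (0.159). The other 6 rises kept their call under each of the 18 alternative settings run, leaving out each array included.

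The window of Srxn1 (chr2:152105274-152105573, plus strand) is shown because it holds the AP-1 element at 2 places, from 102 and 45 bases before the start, and an antioxidant core from 28 bases after it, all in capitals and on the opposite strand. The window at the second listed start of Txnrd1 (chr10:82858956-82859255, plus strand) is shown for its antioxidant core, in capitals and on the opposite strand, from 92 bases before the start.
Srxn1: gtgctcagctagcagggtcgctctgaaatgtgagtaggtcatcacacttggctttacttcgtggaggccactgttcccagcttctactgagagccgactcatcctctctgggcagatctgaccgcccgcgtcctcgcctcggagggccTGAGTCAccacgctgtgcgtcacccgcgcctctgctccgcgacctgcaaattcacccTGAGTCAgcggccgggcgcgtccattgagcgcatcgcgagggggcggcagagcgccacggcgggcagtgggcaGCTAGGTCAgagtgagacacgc
Txnrd1: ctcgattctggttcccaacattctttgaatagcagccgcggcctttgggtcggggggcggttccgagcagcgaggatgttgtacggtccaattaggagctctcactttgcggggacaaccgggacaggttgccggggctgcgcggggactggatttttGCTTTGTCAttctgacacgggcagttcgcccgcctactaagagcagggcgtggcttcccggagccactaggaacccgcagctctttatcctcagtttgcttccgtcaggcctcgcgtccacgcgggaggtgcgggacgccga

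Adding interferon gamma to doxorubicin gave 0 called members of 8. By limma 0% of all genes were called in either direction in DOX_IFNg minus DOX, while 5% had an unadjusted p under 0.05, as did 1 member, Nqo1. Its 3 DOX_IFNg values lay under its 3 DOX values, with means of 5.98 ± 0.20 and 6.58 ± 0.29 (SD, n = 3). The difference was -0.60 (SE 0.16, 95% interval -0.96 to -0.24), which did not pass after adjustment (limma adjusted p = 0.934). Only 23 of the 30050 genes had a lower difference, since Nqo1 ranked as number 24 from the bottom. Gstp1, 1 of 32 further NRF2 targets taken up below, ranked as number 9. The median difference of those 32 was -0.05, and 2 of them had an unadjusted p under 0.05 by limma. Within the set of 6 arrays that share identical values, the DOX_IFNg mean of Nqo1 over 2 arrays lay -0.71 from the DOX mean over 3.

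For the other 7 members the DOX_IFNg and DOX means lay close together. Slc7a11 differed by 0.11 (95% interval -0.12 to 0.35), Hmox1 by 0.04 (-0.25 to 0.33), Gclc by 0.03 (-0.21 to 0.28), Txnrd1 by -0.01 (-0.17 to 0.15) and Nfe2l2 by -0.01 (-0.33 to 0.30). Srxn1 differed by -0.09 (-0.28 to 0.11) and Gsr by -0.15 (-0.32 to 0.03). Only the arrays of Nqo1 and Gsr did not overlap between the groups, 2 members of 8 with DOX_IFNg lower, against 6.69% of all genes. These intervals leave room for changes of up to about the quoted bounds, and no member is shown to be unaffected.

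Cells given both agents, set against the same Con arrays, had 6 members called higher and 1 lower, where 8.01% of all genes were called higher and 9.41% lower. Quantile normalization shifted that split over all genes from 2407 higher and 2827 lower to 3075 and 2273. Nfe2l2 exceeded Con by 1.54 (SE 0.14, limma adjusted p = 0.000149), Slc7a11 by 1.47 (SE 0.11, 4.70e-05), Gclc by 1.24 (SE 0.11, 0.000118), Hmox1 by 1.15 (SE 0.13, 0.000452), Nqo1 by 0.98 (SE 0.16, 0.00306) and Txnrd1 by 0.60 (SE 0.07, 0.000611). Srxn1 lay 0.25 higher, which did not pass (adjusted p = 0.0830), but did under the filter on dim genes (0.0481). Gsr fell by 0.32 (SE 0.07, limma adjusted p = 0.0196), from 5.06 ± 0.07 to 4.74 ± 0.13 (SD, n = 3), with DOX_IFNg replicate 2 below the receptor limit. Gsr no longer passed when Con replicate 1 (adjusted p = 0.0559) or Con replicate 2 (0.0692) was left out, nor in a fit of only the 2 groups (0.0561). Because this comparison shares its Con arrays with DOX minus Con, the likeness of the values in the 2 comparisons is no separate evidence.

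**Figure D3:**
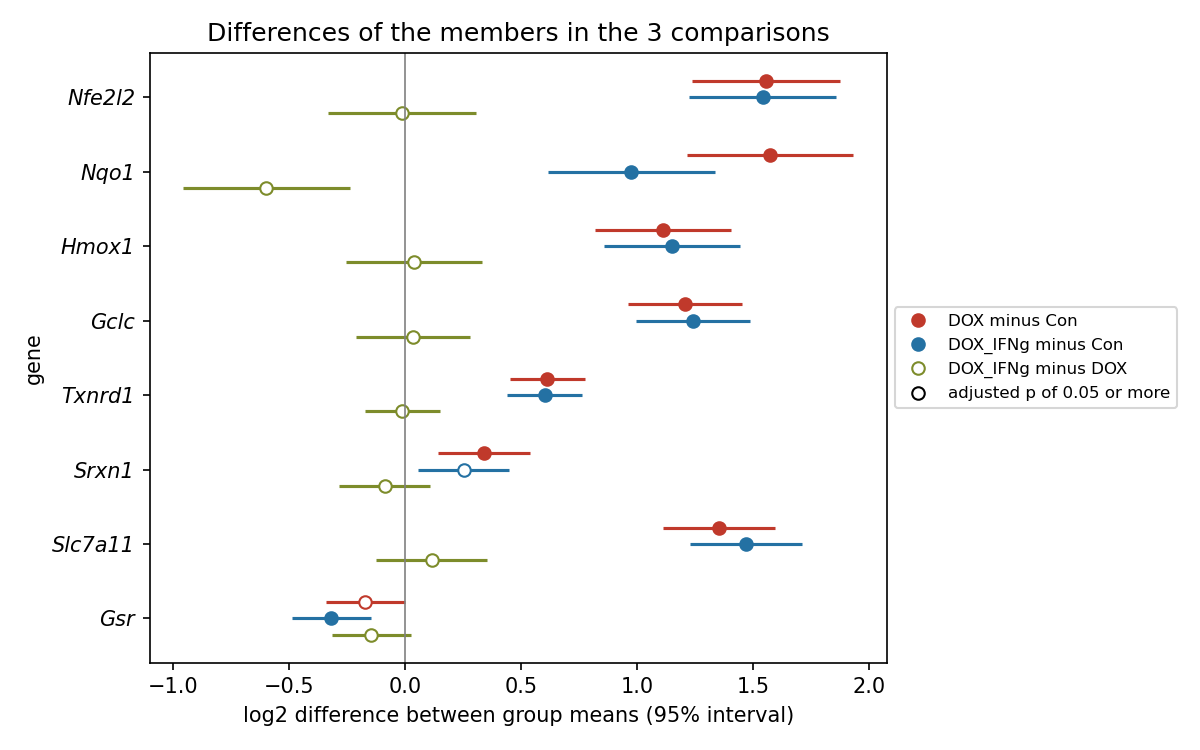
Log2 difference between group means (horizontal axis, point) with its 95% interval (line) for the 8 measured members in the 3 comparisons; filled points passed an adjusted p of 0.05 by limma and open points did not. Nqo1 lies at 1.57 in DOX minus Con, 0.98 in DOX_IFNg minus Con and -0.60 in DOX_IFNg minus DOX, where all points are open.

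Some genes that control NRF2 also changed. Of 17 measured genes of this list, 5 rose, 1 fell and 11 did not pass in DOX minus Con, with a median difference of 0.06. Over all genes 8.06% were called higher and 7.53% lower there, and 8.01% and 9.41% in DOX_IFNg minus Con. The counts of this and the following lists, 6 in all, are to be read beside these shares. In each list most genes lay above the receptor limit, where 17.4% of genes were called higher in DOX minus Con. That larger share is the closer one for the rises, and the share called lower there is not given. Sqstm1, the autophagy receptor p62 that draws KEAP1 away and is itself an NRF2 target, rose by 2.57 (SE 0.13, 5.96-fold, limma adjusted p = 1.35e-05). Nfe2l1, a related factor, rose by 0.85, and the small MAF partners Mafk and Mafg by 0.50 and 0.41. Btrc, an adaptor of a ligase that also marks NRF2, rose by 0.26. Keap1 (-0.03) and Bach1 (-0.05), a repressor that competes at the same elements, did not pass; Bach1 lay under the receptor limit, and Keap1 turned to 0.0019 with quantile normalization and 0.010 with median centring. The 1 fall, that of Brca1 (-0.18), lay under the receptor limit, and the list had 0 genes called lower under both other scalings and in 8 of the 9 fits that omitted an array, the exception being the fit without DOX replicate 3, but 2 genes called lower when only protein-coding genes were tested. With both agents 4 of the 17 rose against Con and 0 fell (1 with the filter on dim genes or with only protein-coding genes), and 9 of 17 had an unadjusted p under 0.05, as had 29% of all genes.

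Further known NRF2 targets were called in both directions. Of 32 measured, 9 rose, 3 fell and 20 did not pass in DOX minus Con, where 8.06% of all genes were called higher and 7.53% lower. The list median was 0.08, and 12 of the 32 lay under the receptor limit. Ephx1, the microsomal epoxide hydrolase, rose by 2.42 (SE 0.15, 5.35-fold, limma adjusted p = 2.46e-05), Akr1b8, an aldo-keto reductase, by 2.24, Gstp1, a glutathione transferase, by 1.18 and Slc48a1, a heme transporter, by 0.73. Osgin1 rose by 0.27, and its DOX mean of 4.20 stayed under the receptor limit. This call was lost without DOX replicate 2 (limma adjusted p = 0.0528) and with the array set as a covariate (0.0745). Akr1b10, also called higher (0.37), lay under the limit as well. The 3 that fell were the glutathione transferases Gstm1 (-0.66) and Gstm3 (-0.46) and Ugdh (-0.55), which makes UDP-glucuronate. Thioredoxin, Txn1, lay at -0.35 and did not pass (adjusted p = 0.0516), although it was called lower without DOX_IFNg replicate 1 (0.0252) or DOX_IFNg replicate 3 (0.0360), with the filter on dim genes (0.0287), among protein-coding genes (0.0299) and in the fit of 2 groups (0.0356). The ferritin chains Ftl1 (0.20) and Fth1 (0.10) did not pass. With both agents 8 rose and 4 fell against Con, but 5 rose with the array set as a covariate, with the filter on dim genes, without Con replicate 1 and without DOX_IFNg replicate 2. In DOX_IFNg minus DOX Gstp1 lay at -0.75 (SE 0.19) without overlap of its arrays, where the list median was -0.05. That difference did not pass (limma adjusted p = 0.934), nor did Gstp1 with both agents against Con, at 0.42 (limma adjusted p = 0.189).

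The supply of NADPH, which Nqo1, Txnrd1 and Gsr consume, showed changes both ways. Of 11 measured genes, 3 rose, 3 fell and 5 did not pass in DOX minus Con, with a median of -0.01. Nadk, the kinase that makes NADP, rose by 0.58, the cytosolic isocitrate dehydrogenase Idh1 by 0.53 and Rpia of the pentose phosphate pathway by 0.45. Idh2, its mitochondrial counterpart, fell by 1.65 (SE 0.10, limma adjusted p = 2.33e-05), the mitochondrial transhydrogenase Nnt by 0.67 and Mthfd1 of the folate cycle by 0.60. Pgd (-0.01) and Taldo1 (-0.04), of the same pathway as Rpia, and the malic enzyme Me1 (0.16), often listed as NRF2 targets, did not pass. The same comparison with both agents gave 3 higher and 3 lower.

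Around glutathione, 6 of 24 measured genes rose, 3 fell and 15 did not pass in DOX minus Con, with a median of 0.09. Chac1, which breaks glutathione down, rose by 1.57 (SE 0.10, 2.96-fold, limma adjusted p = 2.77e-05), Cth, which makes cysteine, by 0.85, Slc3a2, the heavy chain that partners Slc7a11, by 0.80 and the peroxidase Gpx1 by 0.73. Gstt2, also called higher (0.29), lay under the receptor limit. Gss, the second enzyme of glutathione synthesis after Gclc, lay at 0.01 and did not pass. Gpx4, the peroxidase of membrane lipids, lay at 0.31 and did not pass (adjusted p = 0.0917), but was called without Con replicate 3 (0.0416) and with the array set as a covariate (0.0469). The 3 that fell were Gpx7 (-0.71), Esd (-0.56), whose mean over all arrays lay under the receptor limit, and the glutaredoxin Glrx (-0.54). Against Con, cells given both agents had 4 of the 24 higher and 3 lower.

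Of 16 measured thioredoxin and peroxide enzymes, 8 rose, 2 fell and 6 did not pass in DOX minus Con, with a median of 0.16, and 5 rose without DOX replicate 1. Txnip, an inhibitor of thioredoxin, rose by 2.51 (SE 0.13, 5.68-fold, limma adjusted p = 1.24e-05), Cat, catalase, by 1.11 and the stress protein Sesn2 by 1.07. Txnrd3, also called higher (0.37), had a mean over all arrays under the receptor limit. The peroxiredoxins Prdx4 (-0.94) and Prdx2 (-0.78) fell, and the superoxide dismutases Sod1 (0.12) and Sod2 (-0.07) did not pass, Sod2 from under the receptor limit. Against Con, both agents together gave 7 higher and 2 lower.

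The ATF4 list of 19 genes holds Atf4 itself and further ATF4 targets, and does not count Slc7a11. Of the 19, 4 genes, Chac1, Slc3a2, Sesn2 and Mthfd2, are counted in 1 of the lists above as well. In DOX minus Con 14 of the 19 rose, 0 fell and 5 did not pass, with a median of 0.77 against -0.01 over all genes. Ddit3, a stress transcription factor, rose by 2.59, Ddit4, an inhibitor of mTOR signalling, by 1.51, and Shmt2, a mitochondrial enzyme of one-carbon metabolism, by 1.21. Atf4 itself, counted among the 14, rose by 0.75 (SE 0.10, limma adjusted p = 0.00122). The parts of NRF2 and ATF4 in the rise of Slc7a11 were not tested. With both agents 15 rose and 0 fell against Con, with 16 of 19 at an unadjusted p under 0.05. In DOX_IFNg minus DOX limma called 0 genes in each of these 6 lists, and at an unadjusted p under 0.05 stood 0 of 17, 2 of 32, 1 of 11, 3 of 24, 0 of 16 and 1 of 19 in the order given.

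**Figure D4:**
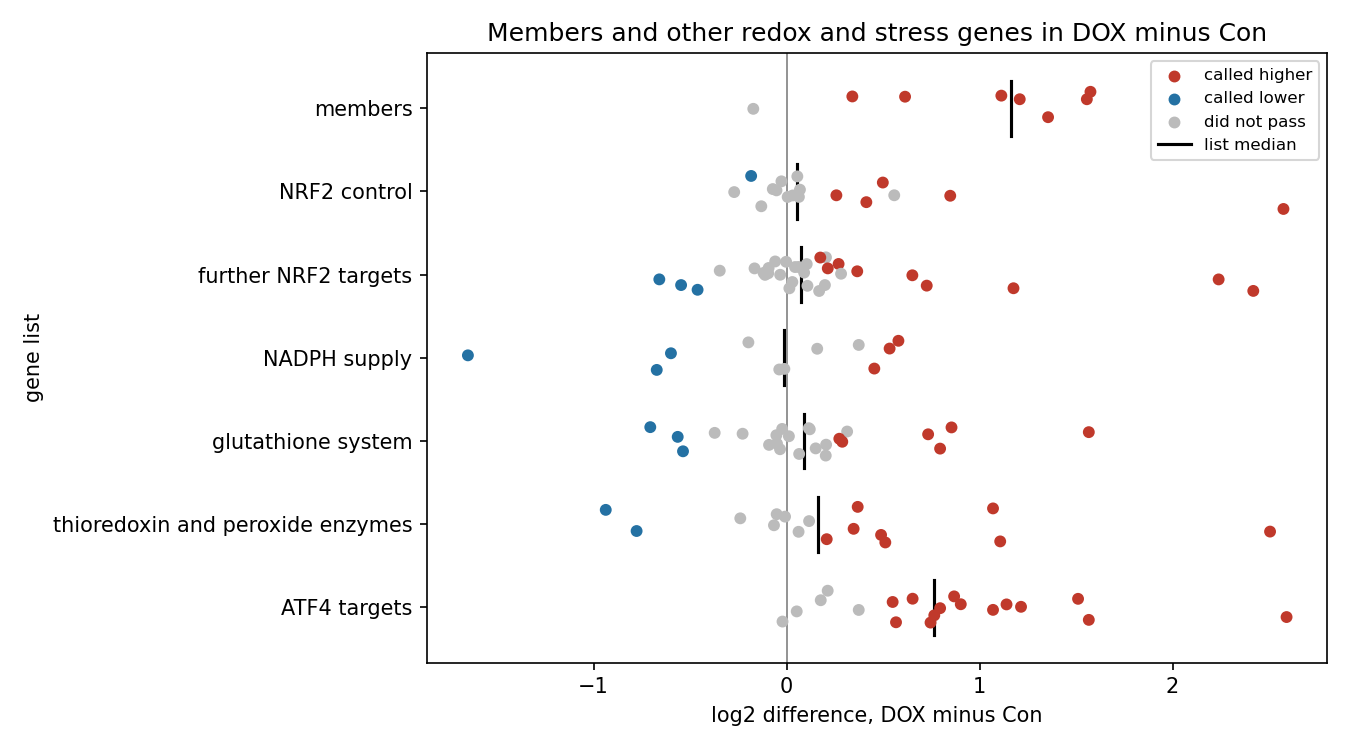
Log2 difference in DOX minus Con (horizontal axis) for each measured gene of the members and of 6 further lists (rows), coloured by whether limma called it at an adjusted p under 0.05; black bars are medians. The medians are 1.16 for the members and 0.77 for the ATF4 targets, a row that includes Atf4 itself, and between -0.01 and 0.16 for the other 5 lists.

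Among 7530 protein-coding genes above the receptor limit and outside the members and lists, the 5 whose profile over the 9 arrays was most like that of Nqo1 were Id1, Sat2, Trappc2l, Chmp2a and Sox9. The measure was the root mean square difference of log2 values after subtracting each gene's mean, which was 0.16 for Id1 and 0.21 for Sox9. Among the members Gclc came closest, at 0.32, and Gsr was farthest, at 0.76. Sat2 was 1.34 higher in DOX than in Con and lay -0.39 from DOX in DOX_IFNg, and Trappc2l gave 1.24 and -0.42. These genes were picked for likeness on the same arrays, so such a rise and drop follow from the pick. They also came from a far larger pool than the members, so their closeness cannot be set against that of the members.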

How the data were processed

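Biotin-labelled cDNA of 9 samples, 3 per group, was measured on Affymetrix arrays. The table the authors deposited holds log2 values per transcript cluster, made with RMA per the submitters' processing notes. No source used here states its version or settings, and the log2 scale was read from the range of values, 2.29 to 19.9. Of 65527 clusters, 30376 carried 1 symbol in the platform annotation, 2117 several and 33034 were not listed. The 245 genes with several clusters were represented by the brightest. All columns belonged to the 9 samples.

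Group means were fitted to all 9 arrays with limma 3.58.1 (lmFit, eBayes) in R 4.3.3, with 6 residual and 2.41 prior degrees of freedom, two-sided, adjusted by Benjamini-Hochberg over 30050 genes, with no filter. Precision is limited by the number of arrays, with a median 95% interval of ±0.19 per gene. In simulated DOX minus Con data for 30050 genes, 200 of them changed, the fit recovered 52.2% of 67 genes shifted by 0.5, 85.1% of 67 shifted by 1, and 100% of 66 shifted by 2. It also made 10 false calls. Far fewer genes were changed there than were called in the data, so the adjustment differed and these shares need not hold for the data. The members, lists and tests were chosen with earlier results of these data known. Named are all members, the called genes of each list with the largest changes (at most 4), and some genes fixed for naming whatever their result (of these Prdx1 and Tkt had only clusters with several symbols and no value). Btrc, Brca1, Gstm1, Gstm3, Ugdh, Akr1b10, Idh1, Rpia, Gpx7, Esd, Glrx, Gstt2, Txnrd3, Prdx2 and Mthfd2, and the markers given with values, were named after their values were seen. Promoter letters came from RefSeq (GRCm38.p6), and no other sequence was used. Alternatives were other scalings, filters and fits, the replicate number as a block, and leaving out each array.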

Additional observations from a re-analysis of the deposited data

How the results depend on the processing

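Of the 8 members, 6 (all but Srxn1 and Gsr) kept their called rise in DOX minus Con and DOX_IFNg minus Con under all 18 alternatives. In DOX_IFNg minus Con, the 1 member called lower became 0 in the fit of only the 2 groups compared, and ranged from 0 to 1 over the fits that left out 1 array. In DOX_IFNg minus DOX, genes called lower ranged from 0 to 1 over those fits, with the 1 call made without Con replicate 3. Uncalled differences near 0 changed sign. In DOX_IFNg minus DOX, Nfe2l2 lay at 0.0083 with quantile normalization, 0.074 with the array set as covariate, and between -0.13 and 0.12 when single arrays were left out. Hmox1 lay at -0.036 with the array set and between -0.13 and 0.14 without single arrays, and Gclc between -0.040 and 0.12. Txnrd1 lay at 0.0030 with quantile normalization, 0.0060 with the array set and between -0.055 and 0.067. In DOX minus Con, quantile normalization, median centring and the array set gave 0.0019, 0.010 and 0.040 for Keap1 and 0.0032, 0.025 and 0.050 for Pgd. The array set gave 0.024 for Taldo1 and 0.019 for Sod2. Without single arrays, Pgd lay between -0.045 and 0.017, Taldo1 between -0.090 and 0.063 and Gss between -0.025 and 0.045. The cause was not tested. Same-numbered arrays did not pair throughout: 3 of 9 such pairs had deviations correlated above 0.1, as had 5 of 18 other pairs, and 4 of 9 arrays correlated best with their own number. Same-numbered pairs ran from -0.16 to 0.36 and other pairs from -0.40 to 0.28. The highest were Con 1 with DOX_IFNg 1 (0.36) and Con 3 with DOX_IFNg 3 (0.33), so a pairing of these groups is not settled. With the replicate block, DOX minus Con had 2270 genes higher and 2202 lower with 7 members higher, and Srxn1 was called in DOX_IFNg minus Con (adjusted p = 0.0223); no other call of a member changed under the block. RMA values near the receptor limit, as of Gsr, Slc7a11 and Nqo1 in Con, limit how far a fall can be seen.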
